A study of Mus musculus with 16 samples.

Results

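Chemokines are the secreted proteins that direct leukocytes through tissue, and the genes for their ligands and receptors were examined here in the seminal vesicle (SV) of 5-week-old mice. Members were all genes whose symbol in the expression table was Ccl, Cxcl, Ccr or Cxcr followed by a number and, where present, a lower-case letter, plus *Cx3cl1*, *Cx3cr1*, *Xcl1* and *Xcr1*. The rule used names and no measured value, and it found 53 of the 31274 genes in the table, 35 ligands and 18 receptors. Expression was given as FPKM, the sequenced fragments of a gene scaled to its exon length and to the fragments mapped in the library, in 16 samples, 4 in each of 4 groups.

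All animals were male mice of the strain C57BL/6, sampled at week 5. WT-veh were wild type pups injected with corn oil, and WT-DES were wild type pups injected under the skin with diethylstilboestrol (DES), a synthetic oestrogen, daily from day 1 to day 5 of life at 2 µg for each pup. αERKO-veh and αERKO-DES (aERKO in the labels) received the same injections but lacked oestrogen receptor α (ERα, encoded by *Esr1*) in every cell of the body. The αERKO mice were bred from heterozygous parents, whereas the pregnant females that bore the WT pups were purchased, so the genotypes were not littermates. The study's methods describe 4 samples per group for sequencing, and, for RNA extraction, 4 individual mice in each of 3 groups and 3 pools of mice in WT-DES. A WT-DES value may therefore stand for several mice, how 3 pools relate to 4 WT-DES samples is not given, so that the 4 may not be independent, and the p-values measure the spread between these samples.

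A chemokine binds a receptor coupled to an inhibitory G protein on a leukocyte, and the cell moves up the gradient of the ligand. CXC ligands with the ELR motif draw neutrophils, the interferon-induced CXC ligands draw activated T cells and NK cells, and most CC ligands draw monocytes, macrophages, eosinophils or T cell subsets. Other ligands, of which *Cxcl12* is the best known, are made by stroma without inflammation. The SV is a secretory gland of the male tract whose luminal epithelium makes the bulk proteins of semen. Because whole SV was measured, fewer cells of a type and less RNA per cell cannot be told apart for any gene below.

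FPKM summed over all genes to 375207 to 437619 in the WT-DES samples and, outside them, to 590446 to 652708 (WT-veh), 479045 to 558591 (αERKO-veh) and 531467 to 622477 (αERKO-DES), and the depth of the libraries is unknown because FPKM hold no fragment counts. *Esr1* was lower in every αERKO sample (0.91 to 1.75 FPKM) than in any WT sample (2.81 to 19.6 FPKM), as the genotypes are labelled. The tissue label was checked on 10 SV secretory genes, whose summed FPKM was at least 33400 in the vehicle groups and in αERKO-DES and 2580 to 8490 in WT-DES, and on 5 genes of the neighbouring anterior prostate, which summed to 3380 to 9570 outside WT-DES and 29.4 to 387 within it. Relative to WT-veh, leukocyte markers were higher in WT-DES for 7 of 7 neutrophil markers found, 8 of 8 macrophage, 5 of 5 dendritic cell, 6 of 6 T cell, 4 of 5 B cell, 4 of 5 NK cell and 5 of 5 mast cell genes. Of 5 genes taken as general leukocyte markers, 4 were higher and *Cd52* was lower (log2 change −2.73, limma adjusted p = 8.31e-08). *Cd52* was at 2837 to 3022 FPKM in WT-veh and 282 to 568 in WT-DES. Among tissue markers 6 of 6 fibroblast, 6 of 6 blood endothelium, 4 of 5 adipose and 3 of 5 basal and squamous epithelium genes were higher in WT-DES. Lower were 5 of 6 genes of epithelium in general and 4 of 5 smooth muscle genes. The part of these tissues in the member values was not tested. A further 4 libraries, WT-veh sample 4 and αERKO-veh samples 2, 3 and 4, had a mean log2(FPKM + 1) of skeletal muscle markers above 6 (6.93 to 7.72, against 1.80 to 4.49 in the other samples), and the members that stood apart in them are given below.

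Differences were tested with limma on log2(FPKM + 1), in 1 model of the 16 samples, for the 15988 genes whose mean FPKM exceeded 1 in any group. A gene was called when its p, adjusted over all genes tested, did not exceed 0.05, the ratio of mean FPKM was at least 1.5 and the mean FPKM above 1 in 1 of the 2 groups. Log2 changes below are on the log2(FPKM + 1) scale, on which changes of low genes come out too small, and are given with the standard error (SE) of the model. The test was made for 47 of the 53 members. *Ccl26* was listed at 0 in all 16 samples, and *Ccr3*, *Ccr6*, *Ccr9*, *Ccr10* and *Cxcr1* stayed at or under a mean of 1 in every group.

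Most chemokine and chemokine receptor genes were higher in WT SV after neonatal DES. Relative to WT-veh, 35 of the 53 members were higher in WT-DES and 3 lower, and 9 were tested and not called. The background was wide, since 52.7% of all genes tested were called, 28.9% as higher and 23.9% as lower. The median log2 change was 1.31 over the 53 members and −0.01 over all genes tested. With every library scaled to an equal total without the 20 highest genes, the median over all genes tested moved to 0.38, 6953 of 8784 genes called were higher in place of 4613 of 8428, and 42 members were higher and 2 lower. Among the ligands 24 of 35 were higher and 2 lower, and among the receptors 11 of 18 were higher and 1 lower. The filter shapes this count, because 16 members passed it only through WT-DES and all 16 of those were called higher. Of the 20 members above the minimum in all 4 groups, 12 were called higher and 3 lower. Every WT-DES sample was above every WT-veh sample for 37 members, 34 of them tested (32.7% of all genes tested did the same), and every WT-veh sample was above every WT-DES sample for 3 (34% of all genes tested). The FPKM of the 53 members summed to 1050 to 1360 in the WT-DES samples, against 402 to 435 in WT-veh, 313 to 362 in αERKO-DES and 343 to 404 in αERKO-veh.

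**Figure D1:**
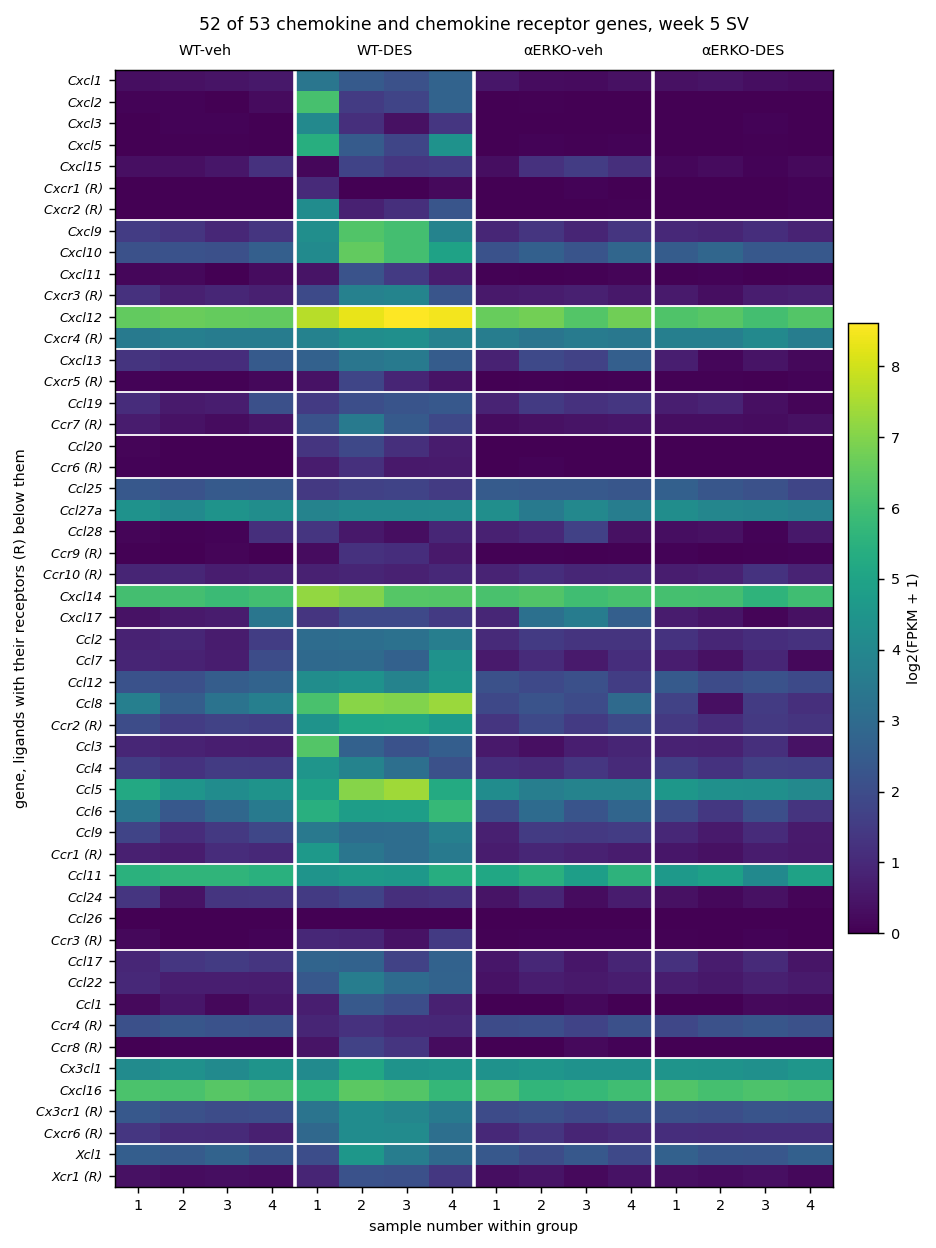
Expression of 52 of the 53 members (rows, ligands grouped with their receptors, receptors marked R) in the 16 samples (columns, 4 per group), coloured by log2(FPKM + 1). The WT-DES columns are the brightest for most rows, *Cxcl12*, *Cxcl14*, *Cxcl16* and *Ccl11* are bright in every group, and *Ccl26* is at 0 throughout.

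The ELR ligands *Cxcl1*, *Cxcl2*, *Cxcl3* and *Cxcl5* were nearly absent from the SV of the other groups and were present in WT-DES. Of the 7 genes with this role, these 4 and the receptor *Cxcr2* rose. *Cxcl15*, an ELR ligand of lung epithelium, was at 0.10, 2.36, 1.57 and 1.79 FPKM in WT-DES and was not called (log2 change 0.57, limma adjusted p = 0.126). It was called in 5 alternatives, which were leaving out WT-DES sample 1 (0.91, limma adjusted p = 0.00505), WT-veh sample 4 (0.77, limma adjusted p = 0.0487) or the 4 libraries rich in muscle markers (0.77, limma adjusted p = 0.0441), equal totals (0.79, limma adjusted p = 0.0489) and sample weights (0.93, limma adjusted p = 0.000975). The receptor *Cxcr1* was not tested. The 5 ligands lie together in 146.6 kb of chromosome 5 (90759360 to 90905938, GRCm38), and 4 of them rose. The 250 bases before the RefSeq start of 3 of these genes are shown because each holds a match to the NF-κB motif, the recognition sequence of a transcription factor of inflammatory signalling, close before the start. Matches were sought on both strands, overlapping matches are merged, and capitals mark them.
*Cxcl1* (GRCm38.p6, chr5:90890995-90891244, plus strand): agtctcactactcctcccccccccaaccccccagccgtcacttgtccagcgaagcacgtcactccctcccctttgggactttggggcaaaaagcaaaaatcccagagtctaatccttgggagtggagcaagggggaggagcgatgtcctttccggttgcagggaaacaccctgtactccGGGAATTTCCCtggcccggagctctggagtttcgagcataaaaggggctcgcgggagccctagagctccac
*Cxcl2* (GRCm38.p6, chr5:90903649-90903898, plus strand): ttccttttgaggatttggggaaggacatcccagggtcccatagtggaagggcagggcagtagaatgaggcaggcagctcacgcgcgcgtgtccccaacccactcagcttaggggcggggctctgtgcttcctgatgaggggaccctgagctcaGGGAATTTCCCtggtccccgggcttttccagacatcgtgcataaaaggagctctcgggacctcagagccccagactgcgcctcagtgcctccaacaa
*Cxcl3* (GRCm38.p6, chr5:90785851-90786100, plus strand): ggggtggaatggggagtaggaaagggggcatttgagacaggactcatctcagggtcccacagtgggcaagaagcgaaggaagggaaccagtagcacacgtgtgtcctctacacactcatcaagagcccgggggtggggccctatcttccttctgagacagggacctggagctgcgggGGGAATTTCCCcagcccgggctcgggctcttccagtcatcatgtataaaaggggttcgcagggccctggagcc
The same run of capitals stands in all 3, its first base 71 bases before the start in *Cxcl1*, 97 in *Cxcl2* and 73 in *Cxcl3*. These distances are from RefSeq starts. GENCODE M21 starts *Cxcl2* at 90903871 and *Cxcl1* at 90891241, within the windows shown, so the distances depend on the annotation.

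*Cxcl2*, a neutrophil attractant made by macrophages and neutrophils, was at 0.05, 0.05, 0 and 0.20 FPKM in WT-veh samples 1 to 4 and at 68.3, 1.80, 2.41 and 5.69 FPKM in WT-DES. The groups did not overlap, but WT-DES sample 1 held most of the signal. The log2 change was 2.93 (SE 0.68, limma adjusted p = 0.00129), and it was 1.90 and still called without WT-DES sample 1. *Cxcl5*, which epithelium makes in inflammation, was at 0 to 0.03 FPKM in WT-veh and at 41.6, 4.60, 2.45 and 19.8 FPKM in WT-DES, a log2 change of 3.49 (SE 0.54, limma adjusted p = 3.4e-05) that was 2.86 without WT-DES sample 1. *Cxcl3*, a close relative of *Cxcl2*, was at 0 to 0.06 FPKM in WT-veh and at 15.5, 1.26, 0.31 and 1.60 FPKM in WT-DES. Its log2 change of 1.71 (SE 0.51, limma adjusted p = 0.0076) fell to 0.94 without WT-DES sample 1, and in a model of the 2 groups alone it was not called (limma adjusted p = 0.0509). *Cxcl1*, the keratinocyte-derived attractant, varied least among the WT-DES samples of these 4 ligands. It was at 0.25 to 0.47 FPKM in WT-veh and at 9.53, 4.46, 3.35 and 5.76 FPKM in WT-DES, a log2 change of 2.25 (SE 0.20, limma adjusted p = 1.14e-07).

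*Cxcr2*, the neutrophil receptor for all of these ligands, was at 0 to 0.02 FPKM in WT-veh and at 17.1, 0.74, 1.25 and 3.88 FPKM in WT-DES (log2 change 2.09, SE 0.49, limma adjusted p = 0.00132), and 1.40 without WT-DES sample 1. *Cxcr1*, its sister receptor, was listed at 1.05, 0, 0 and 0.17 FPKM in WT-DES and at 0 in the 4 WT-veh samples. Neutrophil markers followed the same order of samples, with a mean log2(FPKM + 1) of 6.06, 3.21, 3.32 and 3.72 in WT-DES samples 1 to 4, and their FPKM summed to 115 to 968 in WT-DES against 3.24 to 5.36 in WT-veh. In αERKO the 6 genes other than *Cxcl15* stayed at or under 0.42 FPKM in all 8 samples, and *Cxcl2* was listed at 0 in all 4 αERKO-DES samples.

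The interferon-induced ligands *Cxcl9*, *Cxcl10* and *Cxcl11* and their shared receptor *Cxcr3* all rose, and they were highest in other WT-DES samples than *Cxcl1*, *Cxcl2*, *Cxcl3* and *Cxcl5*. The 3 ligands lie in 44.1 kb of chromosome 5 (92321347 to 92365485). *Cxcl9*, which interferon γ induces in macrophages, was at 1.91, 1.51, 0.96 and 1.53 FPKM in WT-veh and at 18.1, 76.4, 64.0 and 13.5 FPKM in WT-DES. Its log2 change was 3.81 (SE 0.41, limma adjusted p = 9.57e-07), the largest of the members on the log2(FPKM + 1) scale. With a pseudocount of 0.1 it was 4.43, under the 6.45 of *Cxcl5*. *Cxcl10* was at 3.26 to 5.06 FPKM in WT-veh and at 16.5, 93.2, 64.9 and 30.2 FPKM in WT-DES (log2 change 3.17, SE 0.38, limma adjusted p = 2.79e-06). *Cxcl11* was at 0 to 0.22 FPKM in WT-veh and at 0.36, 3.64, 1.77 and 0.62 FPKM in WT-DES (log2 change 1.06, SE 0.27, limma adjusted p = 0.00268). *Cxcl11* is annotated as a polymorphic pseudogene in GENCODE M21, since the allele of C57BL/6 does not make the full protein, and an opposite-strand pseudogene overlaps its exons, so that without strand information the source of its reads is uncertain. An exon of *Cxcl10* overlaps one of *Art3* on the opposite strand, with the same uncertainty.

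*Cxcr3*, which marks activated T and NK cells, was at 0.69 to 1.34 FPKM in WT-veh and at 2.86, 12.8, 13.9 and 3.79 FPKM in WT-DES (log2 change 2.06, SE 0.34, limma adjusted p = 7.41e-05). WT-DES samples 2 and 3 were the highest for all 4 genes. The T cell markers had a mean log2(FPKM + 1) of 2.08, 4.17, 4.06 and 2.49 in WT-DES samples 1 to 4, again highest in samples 2 and 3. The promoter of *Cxcl10* is shown because it is the one member window with matches to both the NF-κB motif (capitals) and the interferon-response motif GAAANNGAAA, the latter 213 to 204 bases before the start.
*Cxcl10* (GRCm38.p6, chr5:92348890-92349139, minus strand): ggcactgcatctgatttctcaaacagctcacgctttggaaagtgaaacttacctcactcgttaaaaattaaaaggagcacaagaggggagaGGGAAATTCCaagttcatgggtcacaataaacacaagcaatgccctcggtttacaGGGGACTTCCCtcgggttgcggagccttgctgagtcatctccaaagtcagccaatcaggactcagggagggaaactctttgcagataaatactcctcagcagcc

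**Figure D2:**
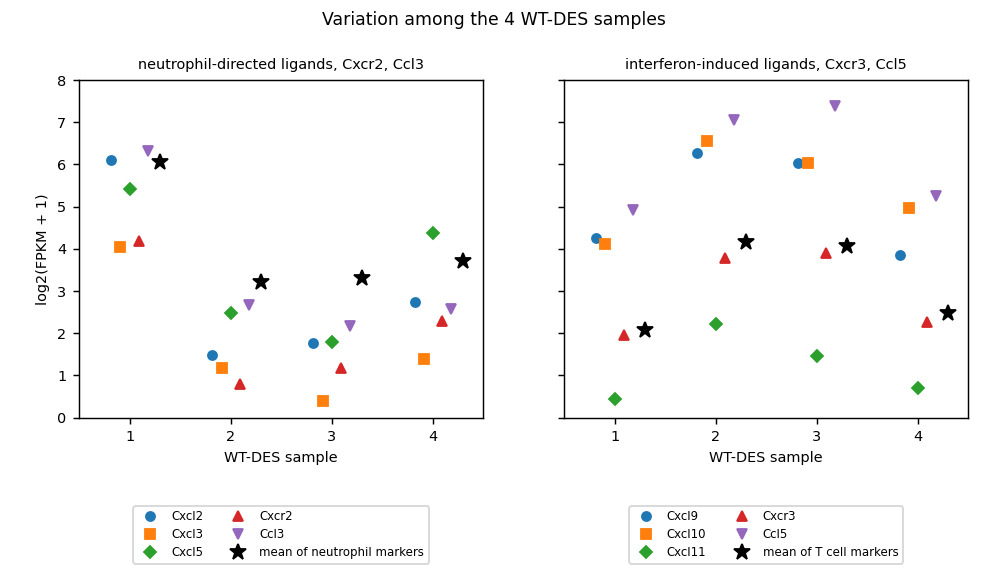
Log2(FPKM + 1) of 5 members and the mean of a marker list (stars) in the 4 WT-DES samples, for 4 neutrophil-directed genes with *Ccl3* on the left and the interferon-induced genes with *Ccl5* on the right; points are set side by side within a sample so that they can be told apart. *Cxcl15*, not drawn, is lowest in sample 1, whereas sample 1 is highest for every gene drawn on the left, and samples 2 and 3 are highest for every gene on the right.

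The 4 WT-DES samples thus differed among themselves in which chemokines were high. Of the 46 members with a mean FPKM above 1 in WT-DES, 10 were highest in sample 1, 19 in sample 2, 8 in sample 3 and 9 in sample 4. Over all 15373 genes with such a mean, the shares were 39.5%, 22.2%, 20% and 18.4%. Sample 1 also stood apart in smooth muscle markers, with a mean log2(FPKM + 1) of 9.13 against 6.94, 7.40 and 7.63 in samples 2 to 4 and 8.79 to 9.11 in WT-veh. With 4 samples and no label that separates them, this variation was not tested.

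*Cxcl12* had the highest mean FPKM of all members in every group. This stromal ligand, which holds leukocytes and stem cells in their niches, was at 92.2, 98, 93.4 and 92.6 FPKM in WT-veh and at 206, 318, 390 and 349 FPKM in WT-DES. WT-veh samples were close to each other, and the lowest WT-DES sample was above all of them. The log2 change was 1.70 (SE 0.16, limma adjusted p = 2.32e-07). All 6 fibroblast marker genes rose, with a median of 1.32, and so did all 6 blood endothelium genes, with a median of 1.35. Their part in the rise of *Cxcl12* was not tested. The receptor *Cxcr4* was at 10.5 to 12.2 FPKM in WT-veh and 12.8 to 18.7 in WT-DES, and at a ratio of 1.38 it missed the fold threshold, with a log2 change of 0.42 and a limma adjusted p of 0.00655. It was called with equal totals (0.82, limma adjusted p = 4.55e-05) and with the length correction (0.60, limma adjusted p = 0.000607). *Ackr3*, the scavenging receptor of *Cxcl12*, falls outside the symbol rule and was named after its values were seen. It was at 24.9 ± 2.06 FPKM in WT-veh and 33.3 ± 10.3 in WT-DES (mean ± SD, n = 4) and was not called (log2 change 0.36, SE 0.16, limma adjusted p = 0.051). *Cxcl14*, an epithelial and stromal ligand, was at 58.0 to 64.9 FPKM in WT-veh and at 148, 125, 80.5 and 77.8 FPKM in WT-DES (log2 change 0.72, SE 0.17, limma adjusted p = 0.00155).

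**Figure D3:**
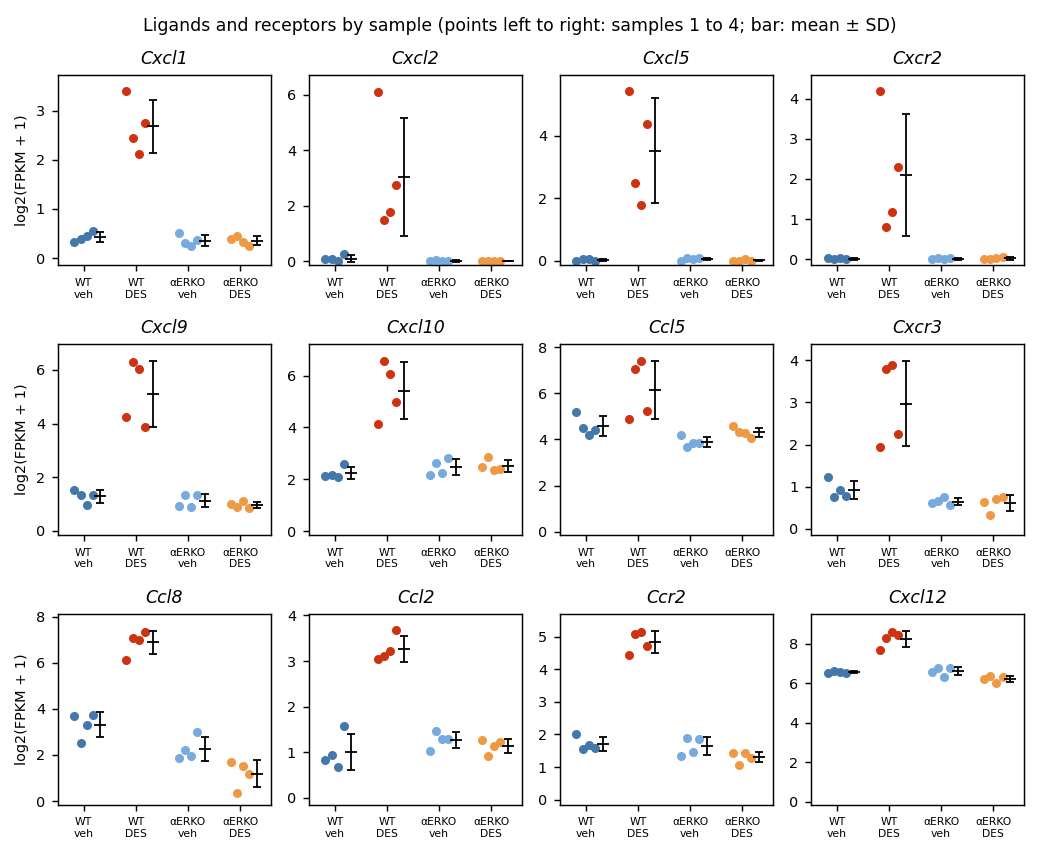
Log2(FPKM + 1) of 12 members in the 16 samples; each point is a sample, with samples 1 to 4 of a group from left to right, and the bar beside them gives the mean and SD. For each of the 12 genes except *Ccl5* every WT-DES point lies above every point of the other 3 groups.

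The lymphoid ligands and their receptors were low in WT-veh and higher in WT-DES. *Cxcl13*, the ligand that draws B cells into follicles, was at 1.17 to 4.39 FPKM in WT-veh and at 5.43, 9.45, 10.5 and 4.71 FPKM in WT-DES (log2 change 1.53, SE 0.36, limma adjusted p = 0.00145). Its receptor *Cxcr5* was at 0.04 to 0.13 FPKM in WT-veh and at 0.34, 2.52, 0.86 and 0.36 FPKM in WT-DES (log2 change 0.80, SE 0.23, limma adjusted p = 0.00489). An exon of *Cxcr5* overlaps *Bcl9l* on the opposite strand. *Ccl19*, which draws dendritic and naive T cells, overlapped between the groups, with WT-veh sample 4 at 3.27 FPKM and the WT-DES samples at 1.79 to 4.18 FPKM (log2 change 0.91, SE 0.29, limma adjusted p = 0.0109). Under quantile normalization it was not called (log2 change 0.46, limma adjusted p = 0.161). Near-identical copies of *Ccl19* and *Ccl27a* are known on mouse chromosome 4, between which the authors' counting could split reads, so their levels are uncertain. *Ccr7*, the receptor of *Ccl19*, was at 0.23 to 0.58 FPKM in WT-veh and at 3.5, 10.4, 4.45 and 2.68 FPKM in WT-DES (log2 change 2.03, SE 0.25, limma adjusted p = 3.03e-06). B cell markers had a mean log2(FPKM + 1) of 0.75, 2.68, 1.85 and 1.02 in WT-DES samples 1 to 4, highest in sample 2, as *Cxcr5* and *Ccr7* were. *Glycam1*, which marks the high endothelial venules where lymphocytes leave the blood, was listed at 0 in the WT-veh samples and at 10.4, 11.8, 15.1 and 3.27 FPKM in WT-DES, and it was called (limma adjusted p = 8.39e-08).

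*Ccl20*, which inflamed epithelium makes to draw cells with the receptor *Ccr6*, was listed at 0 in 3 WT-veh samples and at 0.08 FPKM in the fourth. It was at 1.49, 2.65, 1.21 and 0.56 FPKM in WT-DES (log2 change 1.21, SE 0.18, limma adjusted p = 2.63e-05), and at 0 in all 8 αERKO samples. *Ccr6*, not tested, was at 0.49 to 1.28 FPKM in WT-DES and at most 0.05 elsewhere. The promoter of *Ccl20* is shown because its match to the NF-κB motif (capitals), 80 to 71 bases before the start, also lies close to it.
*Ccl20* (GRCm38.p6, chr1:83116516-83116765, plus strand): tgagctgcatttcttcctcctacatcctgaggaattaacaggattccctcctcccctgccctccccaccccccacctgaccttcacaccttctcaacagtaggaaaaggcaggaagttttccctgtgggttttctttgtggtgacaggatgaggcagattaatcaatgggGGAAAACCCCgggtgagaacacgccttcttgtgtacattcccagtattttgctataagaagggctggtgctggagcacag
RefSeq promoters were listed for 38 of the 53 members (42 windows of 250 bases). The NF-κB motif had a match in 10 of the 42 (23.8%) and in 7.25% of all 32851 windows. The interferon-response motif had a match in 3 of the 42 (7.14%: *Ccl19*, *Cxcl10* and *Cxcl14*) and in 2.98% of all. The palindromic oestrogen response element GGTCANNNTGACC had a match in 0 of the 42 and in 0.0639% of all, and TATAAA in 26.2% and 12.4%. Of the 10 genes with an NF-κB match, *Ccl1*, *Ccl9*, *Ccl20*, *Ccr1*, *Cxcl1*, *Cxcl2*, *Cxcl3* and *Cxcl10* rose and *Ccr3* and *Ccr6* were not tested. Of all 47 members tested 35 rose, with or without a match. *Ccl1*, *Ccl20*, *Ccr1*, *Cxcl1*, *Cxcl2* and *Cxcl3* passed the filter only through WT-DES. *Cxcl1*, *Cxcl2* and *Cxcl3* lie together and share the same match, so they do not count separately. A link between the motif and the rise was not tested. These matches are letters in a window and say nothing of binding.

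The CC genes grouped here as monocyte-directed rose as a whole, with 5 of 5 called. *Ccl8*, a ligand made by tissue macrophages, was at 12.1, 4.82, 8.80 and 12.3 FPKM in WT-veh and at 69.7, 134, 125 and 160 FPKM in WT-DES. The groups were far apart, with a log2 change of 3.56 (SE 0.35, limma adjusted p = 3.49e-07). *Ccl2*, the main attractant of inflammatory monocytes, was at 0.59 to 1.97 FPKM in WT-veh and at 7.27, 7.66, 8.32 and 11.8 FPKM in WT-DES (log2 change 2.26, SE 0.18, limma adjusted p = 5.24e-08). *Ccl7* rose from 0.60 to 2.96 FPKM in WT-veh to 5.32 to 20.2 FPKM in WT-DES (log2 change 2.15, SE 0.35, limma adjusted p = 5.54e-05), and *Ccl12* from 3.25 to 5.63 FPKM to 13.6 to 22.8 FPKM (log2 change 1.88, SE 0.18, limma adjusted p = 3.32e-07). *Ccr2*, the receptor through which monocytes answer *Ccl2*, *Ccl7* and *Ccl12*, was at 3.01, 1.92, 2.22 and 2.02 FPKM in WT-veh and at 20.5, 33.1, 34.7 and 25.2 FPKM in WT-DES. Its log2 change was 3.14 (SE 0.17), and its limma adjusted p of 1.64e-09 was the smallest of the members. The 8 macrophage markers summed to 202 to 344 FPKM in WT-veh and 846 to 1170 in WT-DES, with a median log2 change of 2.06.

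*Ccr1*, a receptor of monocytes and neutrophils, rose together with 5 ligands from a second CC cluster on chromosome 11 (83525778 to 83664683). *Ccl3*, one of its ligands, was, as *Cxcl2* and *Cxcl3* were, far higher in WT-DES sample 1 than in the other three. It was at 0.60 to 0.92 FPKM in WT-veh and at 79.0, 5.35, 3.5 and 4.92 FPKM in WT-DES, and its log2 change of 2.64 (SE 0.64, limma adjusted p = 0.00163) was 1.67 without that sample. *Ccl4*, its neighbour in the cluster, was at 21.6, 13.5, 7.90 and 3.37 FPKM in WT-DES against 1.40 to 1.96 FPKM in WT-veh (log2 change 1.96, SE 0.34, limma adjusted p = 0.000102). *Ccl5*, made by activated T and NK cells, followed the other order. It was at 35.4, 21.7, 17.3 and 20.6 FPKM in WT-veh and at 29.1, 132, 167 and 37.3 FPKM in WT-DES, so that 1 WT-DES sample lay within the WT-veh range (log2 change 1.58, SE 0.43, limma adjusted p = 0.00417). *Ccl6*, a myeloid ligand of *Ccr1*, rose from 4.22 to 10.4 FPKM in WT-veh to 27 to 53.1 FPKM in WT-DES (log2 change 2.16, SE 0.30, limma adjusted p = 1.29e-05). *Ccl9*, another, rose from 1.15 to 2.57 FPKM to 7.25 to 12.5 FPKM (log2 change 1.81, SE 0.22, limma adjusted p = 2.64e-06). *Ccr1* itself went from 0.59 to 1.15 FPKM in WT-veh to 24.0, 9.41, 7.38 and 10.4 FPKM in WT-DES (log2 change 2.77, SE 0.24, limma adjusted p = 1.29e-07).

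Of the 4 eosinophil-directed genes 1 fell, 1 was not called and 2 were not tested. *Ccl11* (eotaxin), made by fibroblasts and epithelium, was at 44.8, 48.5, 48.9 and 43.6 FPKM in WT-veh and fell to 20.8, 24.6, 23.0 and 40.7 FPKM in WT-DES. The groups did not overlap, and the log2 change was −0.79 (SE 0.22, limma adjusted p = 0.004). That call was lost under 3 alternatives, quantile normalization (−0.53, limma adjusted p = 0.061), equal totals (−0.37, limma adjusted p = 0.178) and a correction for transcript length (−0.49, limma adjusted p = 0.066). *Ccl11* lies between *Ccl7* and *Ccl12* in the first CC cluster of chromosome 11 (82035571 to 82305690), in which the other 5 members all rose. *Ccl24*, a second eotaxin, was at 0.34 to 1.59 FPKM in WT-veh and 1.26 to 2.36 FPKM in WT-DES and was not called (log2 change 0.29, limma adjusted p = 0.217), but it was with equal totals (0.55, limma adjusted p = 0.023) and with the length correction (0.56, limma adjusted p = 0.0219). *Ccr3*, the eosinophil receptor, was under the minimum at 0.33 to 1.77 FPKM in WT-DES, above the 0.01 to 0.14 FPKM of WT-veh. The 4 eosinophil markers summed to 0.56 to 0.84 FPKM in WT-veh and 1.12 to 3.40 FPKM in WT-DES, and 1 of them was called higher.

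Of the genes that direct regulatory and type 2 T cells, the 3 ligands and *Ccr8* rose and *Ccr4* fell. *Ccl22*, a dendritic cell product, was at 0.61 to 0.99 FPKM in WT-veh and at 4.22, 11.6, 7.03 and 5.76 FPKM in WT-DES (log2 change 2.17, SE 0.20, limma adjusted p = 1.63e-07). *Ccl17*, its neighbour on chromosome 8, rose by log2 1.19 (SE 0.23, limma adjusted p = 0.000321), from 0.91 to 1.80 FPKM in WT-veh to 2.25 FPKM in WT-DES sample 3 and 5.56 to 5.81 FPKM in the other three. *Ccr4* is the receptor of both, and it was at 3.34, 3.90, 3.55 and 3.29 FPKM in WT-veh and at 0.86, 1.32, 0.99 and 0.95 FPKM in WT-DES. The 4 WT-DES values were the 4 lowest of the 16, and the log2 change was −1.16 (SE 0.11, limma adjusted p = 3.59e-07), called in the same direction under the 17 alternatives in which it was tested. *Ccr4* was lower while its ligands and the T cell markers were higher. Of 6 markers of epithelium in general 5 were lower in the same comparison (median log2 change −0.80). Of 5 markers of basal and squamous epithelium 3 were higher and 0 lower (median 0.94). The part of epithelium in the fall of *Ccr4* and of *Ccl25* was not tested. *Ccl1* and its receptor *Ccr8* were highest in WT-DES samples 2 and 3 (*Ccl1* at 0.64, 4.34, 3.13 and 0.71 FPKM, *Ccr8* at 0.36, 2.24, 1.5 and 0.21 FPKM) and rose by log2 1.12 (SE 0.30, limma adjusted p = 0.00342) and 0.88 (SE 0.24, limma adjusted p = 0.00356).

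Of the 5 homeostatic genes of mucosa and skin 1 fell, 2 were not called and 2 were not tested. *Ccl25*, known from thymus and gut, was at 4.16, 3.56, 4.37 and 4.33 FPKM in WT-veh and fell to 1.72, 2.18, 2.29 and 1.81 FPKM in WT-DES (log2 change −0.77, SE 0.14, limma adjusted p = 0.000159). Its exons overlap those of *Elavl1* on the opposite strand by 204 bases, so part of its signal may belong to that gene. *Ccr9*, the receptor of *Ccl25*, was not tested, at 0.23 to 1.35 FPKM in WT-DES and 0.02 to 0.08 FPKM in WT-veh. Its exons overlap *AC165425.1* and *Slc6a20a* on the opposite strand and the lincRNA *Gm17200* on the same strand, so its level is uncertain. Shorter opposite-strand overlaps, with the same uncertainty, are those of *Cx3cr1* with *Gm33858*, *Xcl1* with *Gm20743* and *Ccl27a* with *Il11ra1*. *Ccl27a*, a ligand of skin keratinocytes, was at 15.9 to 20.6 FPKM in WT-veh and 13.5 to 16.4 FPKM in WT-DES and was not called (log2 change −0.25, SE 0.14, limma adjusted p = 0.132). *Ccl28* was not called (log2 change 0.43, SE 0.30), and their shared receptor *Ccr10*, not tested, was at 0.60 to 1.42 FPKM over the 16 samples.

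Both ligands that are made as membrane proteins were already high in WT-veh and were not called. *Cxcl16* was at 70.0 to 81.3 FPKM in WT-veh and 48.3 to 86.4 FPKM in WT-DES (log2 change −0.20, SE 0.16, limma adjusted p = 0.279), with an exon overlap with *Zmynd15* on the opposite strand, and *Cx3cl1* was at 16.6 to 21.2 and 16.6 to 35.1 FPKM (log2 change 0.28, SE 0.16, limma adjusted p = 0.118). With equal totals *Cx3cl1* was called higher (0.70, limma adjusted p = 0.00277). Their receptors rose. *Cxcr6*, found on resident T and NK cells, went from 0.68 to 1.58 FPKM in WT-veh to 6.55, 17.4, 16.7 and 7.88 FPKM in WT-DES (log2 change 2.55, SE 0.24, limma adjusted p = 2.62e-07). *Cx3cr1*, found on macrophages and patrolling monocytes, went from 3.05 to 4.20 FPKM to 8.94, 17.2, 14.6 and 10.4 FPKM (log2 change 1.59, SE 0.15, limma adjusted p = 2.96e-07). In the XC pair *Xcr1*, a receptor of cross-presenting dendritic cells, went from 0.22 to 0.32 FPKM in WT-veh to 0.85, 3.47, 3.32 and 1.62 FPKM in WT-DES and rose by log2 1.31 (SE 0.21, limma adjusted p = 5.96e-05), and *Xcl1*, with WT-DES sample 1 at 3.09 FPKM and the other three at 6.77 to 22.4 FPKM, was not called (log2 change 0.77, SE 0.36, limma adjusted p = 0.0658) but was called without that sample (log2 change 1.20, limma adjusted p = 0.000968) and, with all samples kept, with equal totals (1.15, limma adjusted p = 0.0134), the length correction (1.19, limma adjusted p = 0.00729) and sample weights (1.06, limma adjusted p = 0.00135).

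In αERKO, no member met the same criteria after DES. Of the 47 tested 0 were called by limma in αERKO-DES against αERKO-veh, where 1.49% of all genes were called (0.0876% higher and 1.41% lower). Before adjustment 10 members reached a limma p of 0.05, as did 25.3% of all genes tested. The median log2 change over the 53 members was −0.02. No member had every αERKO-DES sample above every αERKO-veh sample, which 6.4% of all genes tested did. The reverse held for *Ccl8*, *Cxcl13*, *Cxcl15* and *Cxcl17* (6.57% of all genes tested). Without αERKO-veh sample 1, *Cxcl13*, *Cxcl15* and *Cxcl17* were called lower (limma adjusted p = 0.0112, 0.0429 and 0.012), and with weights for sample quality 8 members were, *Ccl6*, *Ccl8*, *Ccl9*, *Ccl11* and *Ccl19* in addition. The share of all genes called rose as well, to 4.08% without that sample and 7% with the weights. The 239 genes behind the 1.49% were not stable in the other direction either. Without αERKO-veh sample 2 there were 3, without αERKO-veh sample 4 there was 1, and without αERKO-DES sample 1, 2 or 3 there were 2. With quantile normalization 5 were called.

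**Figure D4:**
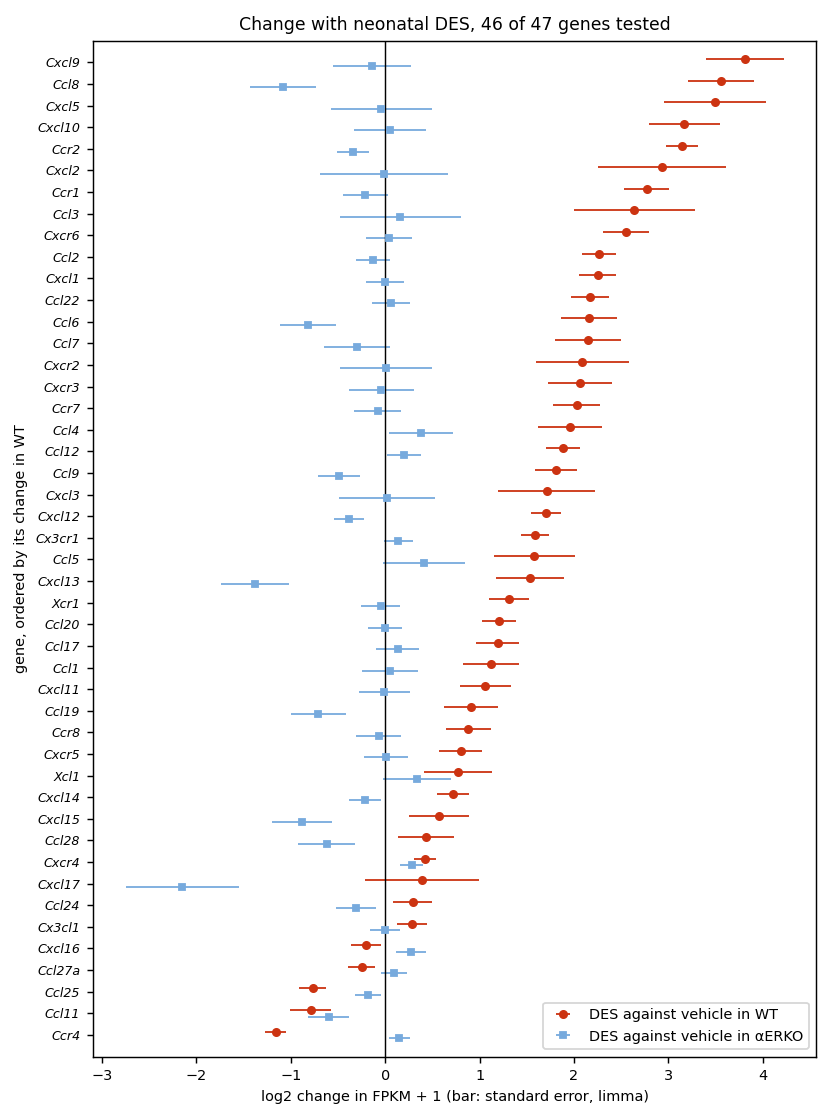
Log2 change with DES (points, with the SE of the model as bars) for 46 of the 47 members tested, in WT (circles) and in αERKO (squares), ordered by the change in WT. The WT points run from −1.16 for *Ccr4* to 3.81 for *Cxcl9*, whereas most αERKO points lie near 0 and the lowest is *Cxcl17* at −2.15.

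The change with DES differed between the genotypes for 39 of the 53 members (37 more positive in WT, 2 more negative), by the interaction term of the same model with the same thresholds on p and fold. Over all genes tested 56.4% met this, 29.6% as more positive and 26.9% as more negative, and the median difference was 1.45 over the members and 0 over all genes tested. The 16 members that passed the filter only through WT-DES are all among the 37, so the filter shapes this count too. Of the 20 above the minimum in all 4 groups, 11 were more positive in WT and 2 more negative. On the log2(FPKM + 1) scale the largest differences were those of *Ccl8* (4.64, SE 0.49, limma adjusted p = 1.35e-06), *Cxcl9* (3.95, SE 0.58, limma adjusted p = 2.77e-05), *Cxcl5* (3.54, SE 0.76, limma adjusted p = 0.000771) and *Ccr2* (3.48, SE 0.24, limma adjusted p = 3.73e-08). Of the members that rose in WT, all but *Ccl5* were among the 37. *Ccl5* differed by 1.17 (SE 0.61, limma adjusted p = 0.1), and by 1.58 (limma adjusted p = 0.0135) without WT-DES sample 1. Without that sample the difference was 1.91 for *Cxcl2*, 0.92 for *Cxcl3*, 2.90 for *Cxcl5*, 1.40 for *Cxcr2* and 1.51 for *Ccl3*, each still called. The call of *Cxcl3* was lost in 18 of 24 alternatives, among them the replicate block (limma adjusted p = 0.053). Without the 4 libraries rich in skeletal muscle markers, 25 members met the criteria, beside 45% of all genes tested. That setting leaves 1 αERKO-veh sample, which is assumed to vary like the other groups. The calls of *Cxcl2* (2.98, limma adjusted p = 0.127), *Cxcr2* (2.06, limma adjusted p = 0.14), *Ccl3* (2.39, limma adjusted p = 0.181) and *Cxcl3* (1.67, limma adjusted p = 0.247) were among those lost, with differences close to those with all samples (2.94, 2.09, 2.48 and 1.69). *Ccr4* and *Ccl25* were the 2 with a more negative change in WT, by −1.31 and −0.59, and the call of *Ccl25* was lost under 10 alternatives. For *Ccl11* the term was −0.19 (SE 0.31, limma adjusted p = 0.581). Its change in αERKO was −0.60 (SE 0.22, limma adjusted p = 0.114).

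Between the DES-exposed groups, 39 members were called in αERKO-DES against WT-DES, 37 lower and 2 (*Ccr4* and *Ccl25*) higher, beside 53.4% of all genes tested (29.6% lower and 23.7% higher). The same 16 members are among the 37, and of the 20 above the minimum in all 4 groups 12 were lower and 2 higher. This comparison shares the WT-DES samples with the first, so the counts are not independent. For *Cxcl12* the 4 αERKO-DES samples were at 74.0, 82.3, 64.4 and 78.1 FPKM, all under the lowest WT-veh sample, and its change in αERKO was −0.38 (SE 0.16, limma adjusted p = 0.161). For *Ccr2* they were at 1.11 to 1.72 FPKM, against 20.5 to 34.7 FPKM in WT-DES.

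Loss of ERα without DES altered few members. In αERKO-veh against WT-veh 1 member was called, *Ccl8* (7.12% of all genes tested were called, 4.5% higher and 2.63% lower). It was at 12.1, 4.82, 8.80 and 12.3 FPKM in WT-veh and at 2.69, 3.6, 2.87 and 6.93 FPKM in αERKO-veh, a log2 change of −1.06 (SE 0.35, limma adjusted p = 0.0366). The groups overlapped through 1 sample each, and the call did not hold without any 1 of WT-veh samples 1, 3 and 4 or αERKO-veh samples 1, 2 and 3 (log2 change −1.07 to −0.93, limma adjusted p of 0.0753 to 0.105). In all it was lost in 13 of 18 alternatives, over which the log2 change ran from −1.32 to −0.44. One of the 13, without the 4 libraries rich in muscle markers, leaves 1 αERKO-veh sample, and there the change was −1.30 (limma adjusted p = 0.702) and 7 of 15923 genes were called. Every WT-veh sample was above every αERKO-veh sample for *Ccl5* and *Ccr4* (17.1% of all genes tested, and 12.6% the other way round), neither of which was called. In αERKO-DES, *Ccl8* was at 2.22, 0.29, 1.83 and 1.24 FPKM, which was not called against αERKO-veh (log2 change −1.08, limma adjusted p = 0.0887). Against WT-veh, αERKO-DES had 4 members called, all lower (3.18% of all genes tested, 1.97% as lower). They were *Ccl8* (−2.14, SE 0.35, limma adjusted p = 0.00366), *Ccl6* (−1.36, SE 0.30, limma adjusted p = 0.0167), *Ccl11* (−0.92, SE 0.22, limma adjusted p = 0.0214) and *Ccl24* (−0.85, SE 0.21, limma adjusted p = 0.0247). The call of *Ccl8* held in all 18 alternatives. That of *Ccl24* was lost in 8 of 17, among them the replicate block (limma adjusted p = 0.0514), that of *Ccl11* in 6 of 18, among them quantile normalization (limma adjusted p = 0.0512) and the length correction (limma adjusted p = 0.0556), and that of *Ccl6* in 3 of 18. The count was 1 without WT-veh sample 4 and 2 without WT-veh sample 3, αERKO-DES sample 3 or αERKO-DES sample 4, and without the 4 libraries rich in muscle markers *Ccl8* alone was called. All genes called in αERKO-DES against WT-veh moved as well. They numbered 508 with all samples, 217 and 259 without WT-veh sample 4 or 3, 199 and 206 without αERKO-DES sample 3 or 4, and 883 without αERKO-DES sample 1. The 8 macrophage markers summed to 202 to 344 FPKM in WT-veh, 128 to 204 in αERKO-DES and 143 to 209 in αERKO-veh. Adipose markers summed to 114 to 610, 15.4 to 40.7 and 62.5 to 642 FPKM in the same order, and fibroblast markers to 731 to 881, 496 to 594 and 599 to 980. The part of these cells in the differences was not tested.

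*Cxcl17*, *Cxcl15* and *Cxcl13* were higher in the 4 libraries rich in skeletal muscle markers than in the other 4 vehicle samples, though not in the order of the markers within the 4. *Cxcl17*, a mucosal ligand, was at 0.34, 0.49, 0.56 and 9.41 FPKM in WT-veh, at 0.88, 7.97, 11.3 and 5.06 FPKM in αERKO-veh, at 1.53 to 2.74 FPKM in WT-DES and at 0.09 to 0.58 FPKM in αERKO-DES. The 4 highest values were those of the 4 libraries with the most muscle marker RNA. *Cxcl15* was at 1.36 FPKM in WT-veh sample 4 against 0.27 to 0.43 in the other three, and at 0.24, 1.34, 1.87 and 1.22 FPKM in αERKO-veh. *Cxcl13* was at 4.39 FPKM in WT-veh sample 4 against 1.17 to 1.47, and at 0.76, 2.75, 2.24 and 5.03 FPKM in αERKO-veh. The 4 libraries were also the 4 highest of the 8 vehicle samples for *Ccl2* (1.43 to 1.97 FPKM, against at most 1.04), *Ccl19* (1.36 to 3.27, against at most 1.13), *Cxcl10* (3.77 to 6.14, against at most 3.53) and *Cx3cl1* (19.82 to 21.99, against at most 19.79), and the 4 lowest for *Xcl1* (2.77 to 4.13, against at least 4.22). The share of all genes that split this way was not counted, so whether these members stand out is unknown. All of the 4 libraries but WT-veh sample 4 were αERKO-veh, so the split also follows genotype in large part. In αERKO-DES against αERKO-veh the log2 changes of *Cxcl17*, *Cxcl15* and *Cxcl13* were −2.15, −0.88 and −1.38, with limma adjusted p of 0.0611, 0.118 and 0.0519. In the same comparison 4 of 6 skeletal muscle genes and 3 of 5 adipose genes were called lower. The lists did not always move together, since αERKO-veh sample 3, rich in muscle markers, had an adipose mean log2(FPKM + 1) of 2.06. Adipose genes were also lower in αERKO-DES than in WT-DES for 5 of 5, and more positive in WT in the interaction for 5 of 5. The part of muscle and fat in the member values was not tested. Without WT-veh sample 4 *Cxcl17* was called against WT-veh as higher in WT-DES (log2 change 1.1, limma adjusted p = 0.0408) and in αERKO-veh (log2 change 2.03, limma adjusted p = 0.0196).

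**Figure D5:**
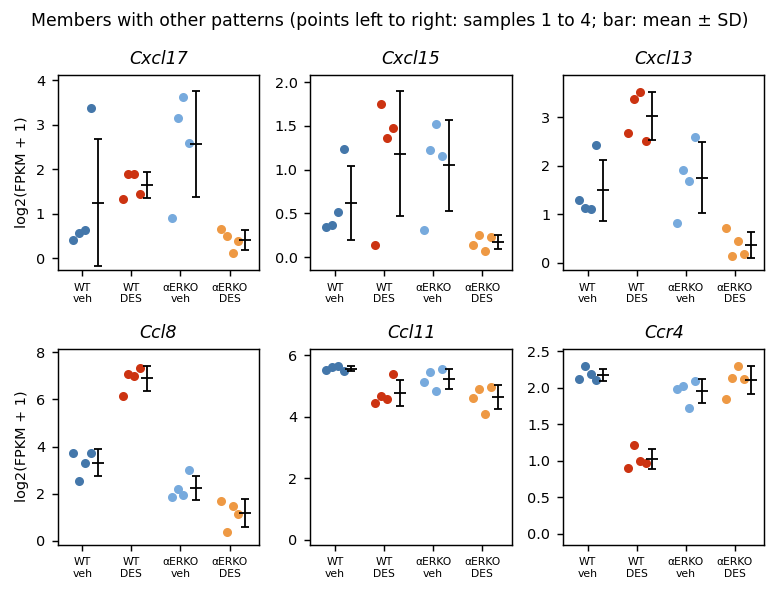
Log2(FPKM + 1) of 6 members in the 16 samples, drawn as points with samples 1 to 4 of a group from left to right and the mean and SD beside them. *Cxcl17*, *Cxcl15* and *Cxcl13* are high in WT-veh sample 4 and αERKO-veh samples 2 to 4, *Ccl8* is lowest in αERKO-DES, *Ccl11* is lower in WT-DES than WT-veh, and the 4 WT-DES points of *Ccr4* are the lowest of the 16.

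Genes that act around the chemokines were examined in the same comparison, WT-DES against WT-veh. The counts below stand beside 28.9% of all genes tested called higher there and 23.9% called lower. *Pf4* and *Ppbp*, chemokines of platelets and macrophages whose symbols fall outside the rule, were both higher, by log2 1.07 and 1.74. Of 4 atypical receptors, which take up chemokines without signalling, 3 were higher: *Ackr2* (log2 1.13), *Darc* (1.61), the receptor of venules and red cells, and *Ccrl2* (0.64). *Ackr4*, the scavenger of *Ccl19* and *Ccl25*, was not called (−0.36, limma adjusted p = 0.0107, under 1.5-fold). Nor was *Ackr3*, a further atypical receptor that is not among the 4 (0.36, limma adjusted p = 0.051). Of 18 genes of receptor signalling 9 were higher and 4 lower. The broadly expressed *Gnb1* (−0.69) and *Arrb2* (−0.77) were lower and *Gnai2* was not called (0.13). Of 7 RGS genes, brakes on G protein signalling, 5 were higher, *Rgs1* by log2 1.52.

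Of 10 upstream cytokines 6 were higher and 4 were not tested. *Il1b*, an inducer of ELR ligands, was at 0.23 to 0.53 FPKM in WT-veh and at 67.0, 16.6, 16.5 and 16.1 FPKM in WT-DES (log2 change 4.14, SE 0.34, limma adjusted p = 6.21e-08). It was highest in WT-DES sample 1, as *Cxcl2* was and as were 39.5% of all genes with a mean FPKM above 1 in WT-DES. The part of these cytokines or of NF-κB in the rise of any member was not tested. *Tnf* (2.24) and *Ltb* (3.17) were also higher. Of 8 genes that NF-κB itself induces, 7 were higher, among them *Nfkb2* (1.13) and *Relb* (1.14), and *Nfkbia* was not called (0.18). Of 7 proteases that trim or shed chemokines 4 were higher, among them *Mmp2* (1.11) and *Adam17* (0.82), and *Dpp4*, which inactivates *Cxcl10* and *Cxcl12*, was lower (−1.91, SE 0.21, limma adjusted p = 9.57e-07). In αERKO-DES against αERKO-veh none of these genes was called by limma.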

How the data were processed

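RNA-seq of SVs from 16 mouse samples, 4 in each combination of genotype (WT, αERKO) and treatment (corn oil, DES), was analysed from the expression table. The authors aligned paired-end reads to mm10 (GRCm38) with TopHat2 2.0.4 and made the deposited FPKM per gene with Cufflinks 2.0.2. Whether libraries were scaled further, the strand setting and the annotation of the table are not given in the sources used here. FPKM keep no fragment counts, and the low values showed no common step from which reads could be recovered, so the depth is unknown and precision rests on the spread between 4 samples. No 2 samples had identical values (0 identical pairs).

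Values were taken as log2(FPKM + 1) and fitted in R 4.3.3 with limma 3.58.1, as 1 model of group means over all 16 samples, with the trend option of eBayes. P-values were adjusted by Benjamini-Hochberg over the 15988 genes whose mean FPKM exceeded 1 in any group. The interaction subtracted the αERKO change with DES from the WT change. The study used Cuffdiff, which needs reads, with the same thresholds. The steps were tested on simulated data. Alternatives comprised a pseudocount of 0.1, dropping the minimum, a minimum of 5 on mean FPKM, quantile normalization, equal totals without the 20 highest genes, a lowess correction (span 0.3) for transcript length, a model of only the 2 groups compared, a replicate block, sample weights and leaving out each sample. Leaving out the 4 libraries rich in muscle markers was added after seeing the data.

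Any member may be named, except that 1 is counted in the totals and not reported here by name. Values by sample or by range and statistics are given for members called in WT-DES against WT-veh, and of other genes *Esr1* and up to 4 per list with the highest mean FPKM. *Ackr3* was added outside this rule. The members, roles and lists were chosen with earlier results of these data known. Gene positions are from GENCODE M21 (GRCm38), and promoter sequences from RefSeq (GRCm38.p6). Figures were drawn with matplotlib 3.10.9, and tables made with pandas 2.3.3 and numpy 2.4.6 under Python 3.11.15.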

Additional observations from a re-analysis of the deposited data

Results flagged for a closer look

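In 15 of 123 member groups of 4 samples, 1 sample stood apart from the other three by more than the 95% critical ratio of Dixon's test. Chance gives about 1 in 20 for independent groups of normally distributed values. Here the ratio was taken on FPKM and all groups came from the same 16 libraries, so the count cannot be set against that rate. In WT-DES sample 1 these were *Ccl3* at 78.98 FPKM, *Cxcl2* at 68.32, *Cxcl3* at 15.54 and, as a low value, *Ccl27a* at 13.54. WT-DES sample 3 was low for *Ccl17* at 2.25 FPKM, and WT-DES sample 4 was high for *Ccl7* at 20.16. WT-veh sample 4 was high for *Ccl7* at 2.96 FPKM, *Cxcl10* at 5.06, *Cxcl13* at 4.39 and *Cxcl17* at 9.41, and it is one of the 4 libraries rich in skeletal muscle markers. The others were *Ccl24* at 0.34 FPKM in WT-veh sample 2, *Cxcl14* at 57.97 in WT-veh sample 3, *Ccl9* at 0.69 in αERKO-veh sample 1, *Cx3cl1* at 21.99 in αERKO-veh sample 2 and *Ccl4* at 1.39 in αERKO-DES sample 2.

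The log2 change with DES differed between WT and αERKO by the limma interaction term for 39 members, of which 38 are given here. The difference, WT minus αERKO, was 2.25 for *Cxcl1*, 2.94 for *Cxcl2*, 1.69 for *Cxcl3*, 3.54 for *Cxcl5*, 1.45 for *Cxcl15* and 2.09 for *Cxcr2*. It was 3.95 for *Cxcl9*, 3.12 for *Cxcl10*, 1.06 for *Cxcl11* and 2.10 for *Cxcr3*. Among stromal, lymphoid and epithelial genes it was 2.08 for *Cxcl12*, 2.91 for *Cxcl13*, 0.79 for *Cxcr5*, 1.63 for *Ccl19*, 2.12 for *Ccr7*, 1.21 for *Ccl20*, 0.92 for *Cxcl14*, 2.55 for *Cxcl17*, 1.05 for *Ccl28* and −0.59 for *Ccl25*. In the monocyte group it was 2.39 for *Ccl2*, 2.46 for *Ccl7*, 4.64 for *Ccl8*, 1.68 for *Ccl12* and 3.48 for *Ccr2*, and in the second CC cluster it was 2.48 for *Ccl3*, 1.58 for *Ccl4*, 2.99 for *Ccl6*, and 2.30 for *Ccl9*. It was 2.98 for *Ccr1*. The remaining values were 1.06 for *Ccl17*, 2.11 for *Ccl22*, 1.07 for *Ccl1*, 0.95 for *Ccr8*, −1.31 for *Ccr4*, 1.45 for *Cx3cr1*, 2.51 for *Cxcr6* and 1.36 for *Xcr1*. These calls were lost in 18 of 24 alternatives for *Cxcl3*, in 10 of 24 each for *Ccl1* and *Ccl25*, in 13 of 22 for *Ccl28* (with the replicate block at a limma adjusted p of 0.0572) and in 11 of 22 for *Cxcr5*. For *Ccl28*, *Cxcl15* and *Cxcl17* no rise was called in WT, and the αERKO changes were −0.62, −0.88 and −2.15.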

How the results depend on the processing

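No member changed direction while called, under any alternative. The counts of members called in WT-DES against WT-veh (38) and in αERKO-DES against WT-DES (39) stayed within 1.5 times, at 36 to 41 and 37 to 41 when samples were left out in turn. The other counts were small or depended on the libraries. In αERKO-veh against WT-veh (1 member) 0 were called with a pseudocount of 0.1, without a minimum, with quantile normalization, with equal totals, with the length correction and without the 4 libraries rich in muscle markers, 3 in a model of the 2 groups, 6 with sample weights, and 0 to 3 when samples were left out. All genes called there moved from 1139 to 857 with quantile normalization, 463 with the length correction, 7 without the 4 libraries, which leaves 1 αERKO-veh sample, and 1685 with weights. In αERKO-DES against αERKO-veh (0 members) 2 were called with a pseudocount of 0.1, 2 with the length correction, 8 with sample weights and 0 to 3 when samples were left out, beside 401, 305 and 1119 of all genes with the first 3 settings in place of 239. Of all genes 5 were called there with quantile normalization, 28 in a model of the 2 groups and 1 to 653 when samples were left out. In αERKO-DES against WT-veh (4 members) 7 were called with sample weights, 1 without the 4 libraries and 1 to 5 when samples were left out. The interaction (39 members) gave 25 without the 4 libraries, which removes 3 of the 4 αERKO-veh samples, 28 with quantile normalization (26 more positive, 2 more negative), which ended the calls of *Ccl1*, *Ccl3*, *Ccl4*, *Ccl17*, *Ccl28*, *Cxcl3*, *Cxcl11* and *Cxcl17* and left 3 other called members untested, and 34 to 40 when samples were left out. The interaction call of *Cxcl3* was lost in 18 settings, and those of *Ccl28*, *Cxcr5*, *Ccl1* and *Ccl25* in 13, 11, 10 and 10. The cause was not tested. With equal totals 7288 of 9251 interaction genes were more positive in WT in place of 4729 of 9025, and 43 members were more positive and 1 more negative. Between the DES groups 2031 of 8620 genes were higher in αERKO-DES in place of 3797 of 8537, with 1 member higher and 43 lower. The replicate block left 38 members called in WT-DES against WT-veh and 37 in the interaction, and changed no other count by over 1.5 times. The numbers did not pair the samples: of 24 same-number pairs 3 had a correlation of deviations above 0.1 (−0.21 to 0.28), and 3 of 16 samples were closest to a sample of their own number. Without fragment counts, no limit of detection can be given for values listed at 0.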
